A study of Mus musculus with 8 samples.

Results

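Fibroblast growth factor (FGF) signalling was followed through 10 genes in mouse osteoblast progenitors: the ligands Fgf2, Fgf7 and Fgf18, the receptors Fgfr1, Fgfr2 and Fgfr3, and the feedback genes Spry1, Spry2, Spry4 and Dusp6. They were taken by symbol from the 51822 gene symbols with values, and all 10 passed the filter on low values that left 12514 genes for testing. The study asked how LAMZ (locamidazole), an aminoindazole derivative, acts on osteoblastic cells. Total RNA was sequenced from cells kept in osteogenic medium, and each value is an RPKM, read numbers adjusted for gene length and for the mapped reads of each library. The 4 groups were day 7 control, day 7 LAMZ, day 14 control and day 14 LAMZ, with 2 libraries each. Control cells received the vehicle DMSO, LAMZ cells received 1 µM LAMZ, and the ascorbic acid, dexamethasone and β-glycerophosphate of the osteogenic medium were shared by all 4 groups. The value column of day 7 LAMZ replicate 1 carries a header that does not repeat its sample title, as those of the other 7 libraries do, and its sample was taken from the record of the deposited files. The labels name the cells MC3T3-E1, a clonal mouse calvarial line, whereas the methods name cultured calvarial cells from neonatal mice. Nothing says that the 2 libraries of a group came from separate cultures, so p-values measure the spread between these libraries, which may be technical.

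FGF ligands are secreted proteins that bind receptor tyrosine kinases together with heparan sulfate. Ligand binding brings receptors together, they phosphorylate each other, and the signal runs through FRS2, GRB2 and RAS to the ERK kinases. ERK signalling raises the transcription of its own inhibitors: Sprouty proteins block the route to ERK, and DUSP6 removes phosphate from ERK in the cytoplasm. In bone, FGFR1, FGFR2 and FGFR3 act in osteoprogenitors and chondrocytes, FGF18 and FGF2 are known as ligands of osteoblastic cells, and FGF7 is a ligand of mesenchymal cells that acts mainly on a splice form of FGFR2 found in epithelia. The values are per gene, so splice forms of the receptors cannot be told apart here.

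With LAMZ, a pair of receptors was higher on both days, and at day 14 all 3 ligands and all 4 feedback genes were lower. Fgfr2 and Fgfr3 were higher in LAMZ than in control libraries on both days, Fgfr1 differed on neither day, and 4 genes (Fgf7, Spry2, Spry4 and Dusp6) were lower on both days. Fgf2, Fgf18 and Spry1 were lower past the threshold at day 14. In total, 6 of the 10 genes passed an adjusted p of 0.05 in limma at day 7 (2 higher, 4 lower), against 12.8% of all 12514 tested genes, 4.35% higher and 8.49% lower. At day 14, 9 of 10 passed (2 higher, 7 lower), against 23.0% of all tested genes, 6.96% higher and 16.0% lower. The 10 genes were chosen with earlier results of these data known, so these shares stand beside the counts as a description. The median change of the 10 genes was −0.29 on the log2(RPKM + 1) scale at day 7 and −0.89 at day 14, while the median of all tested genes was −0.080 and −0.15. The count at day 7 was 3 of 10 (Fgfr2, Fgf7 and Spry2) when control replicate 1 was left out or when the 4 day 7 libraries were fitted alone. It was 4 of 10 (Fgfr2, Fgf7, Spry2 and Spry4) without LAMZ replicate 1, the library with the differing header.

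The libraries held 3463537 to 5829104 mapped reads, as recovered from the step size of low RPKM values. Markers of other cells moved with LAMZ as well. The summed RPKM of the 11 macrophage markers measured was 432 and 551 in the day 7 control libraries, 7.43 and 9.27 with LAMZ at day 7, 1030 and 1089 in day 14 control, and 7.25 and 7.52 with LAMZ at day 14. C1qa, C1qb, C1qc and Fcgr1 were at 0 in every LAMZ library, and 9 of 11 macrophage markers at day 7 and 11 of 11 at day 14 were lower with LAMZ. Of the 10 osteoblast markers, 6 at day 7 and 7 at day 14 were higher with LAMZ and none was lower, and their summed RPKM ranged from 7269 to 18450 over the libraries. Of the 6 chondrocyte markers, 4 were higher at day 7, and 5 were higher and 1 lower at day 14. Of the 5 fibroblast or tenocyte markers tested, 2 were lower at day 7 and 4 at day 14, with a summed RPKM of 178.6 to 236.0 in control and 59.1 to 130.1 with LAMZ over both days. Of the 4 adipocyte markers tested, 1 was lower at day 7 and 3 at day 14, with sums of 21.4 to 96.8 in control and 5.97 to 9.02 with LAMZ. Of the 5 pericyte or smooth muscle markers tested, 2 were higher at day 7 and 5 at day 14, with sums of 910 to 1203 in control and 1290 to 2055 with LAMZ. Endothelial and skeletal muscle markers had 1 tested gene each: Tek, lower on both days, and Des, higher at day 14. The sums of these lists stayed at or below 7.31. Des made up 6.40 and 5.84 of the skeletal muscle sums of 7.31 and 6.40 in day 14 LAMZ. Myod1, Myog, Myf5, Ckm and Myh3 stayed at or below 0.274 RPKM in every library. Fewer cells of a type and less RNA per cell cannot be told apart in bulk samples, and the part of these other cells in the changes of the FGF genes was not tested.

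The promoter sequences of 5 of the genes that changed are shown for reference, because they include the receptor with the clearest rise and ligands and feedback genes that fell. Each is the 250 bases before the RefSeq start in GRCm38.p6, read 5′ to 3′ on the strand of the gene. The promoter table matched 8 of the 10 genes, and Fgfr1 and Spry4 are named only. Windows holding annotated exons were not printed. Capitals mark matches to any of 6 motifs searched on both strands. These were the GC box bound by SP factors, GGGCGG, the TATA box that lies before some start sites, TATAAA, and the core of the cAMP response element bound by CREB, TGACGT. The others were the site of the AP-1 factors downstream of ERK, TGANTCA, a core of the sites of ETS factors, CCGGAA, and the core of the sites of NFAT factors, TGGAAA. No pair of these motifs overlapped in the windows shown.
Fgf7 (chr2:126034408-126034657, + strand): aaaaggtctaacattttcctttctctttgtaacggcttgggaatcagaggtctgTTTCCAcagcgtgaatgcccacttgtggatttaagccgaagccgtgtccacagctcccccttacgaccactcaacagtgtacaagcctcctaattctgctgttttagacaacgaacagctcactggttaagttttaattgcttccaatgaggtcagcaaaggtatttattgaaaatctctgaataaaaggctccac
Fgf18 (chr11:33147401-33147650, - strand): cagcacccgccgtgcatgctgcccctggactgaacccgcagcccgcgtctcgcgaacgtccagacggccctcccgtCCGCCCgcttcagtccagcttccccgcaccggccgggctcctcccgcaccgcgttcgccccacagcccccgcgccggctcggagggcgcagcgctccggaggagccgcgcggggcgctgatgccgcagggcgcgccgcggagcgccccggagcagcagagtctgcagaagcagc
Fgfr2 (chr7:130266809-130267058, - strand): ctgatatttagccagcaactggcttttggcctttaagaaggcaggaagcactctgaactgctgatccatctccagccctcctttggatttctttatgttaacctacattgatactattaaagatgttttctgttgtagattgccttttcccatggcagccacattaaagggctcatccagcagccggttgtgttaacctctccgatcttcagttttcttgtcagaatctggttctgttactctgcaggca
Spry2 (chr14:105896820-105897069, - strand): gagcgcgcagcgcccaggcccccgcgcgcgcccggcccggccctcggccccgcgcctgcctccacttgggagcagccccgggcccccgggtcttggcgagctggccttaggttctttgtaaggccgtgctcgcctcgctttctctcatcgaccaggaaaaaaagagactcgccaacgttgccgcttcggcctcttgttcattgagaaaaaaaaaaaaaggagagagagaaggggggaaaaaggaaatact
Dusp6 (chr10:99262981-99263230, + strand): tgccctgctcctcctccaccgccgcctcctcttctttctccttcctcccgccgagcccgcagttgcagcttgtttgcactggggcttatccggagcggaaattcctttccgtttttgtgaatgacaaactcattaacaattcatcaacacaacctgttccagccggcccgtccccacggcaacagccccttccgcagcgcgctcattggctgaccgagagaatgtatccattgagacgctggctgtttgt

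The Fgf7 window held 1 NFAT core on the other strand, at positions −196 to −191 from the start, a motif found in 18.6% of all 32841 promoter windows of this length. The Fgf18 window held 1 GC box on the other strand, at positions −174 to −169, which 32.7% of all windows had. No motif of this search was in the Fgfr2, Spry2 or Dusp6 window, which says only that these letters are not in those 250 bases. The windows also differed in base composition, with a GC content of 43.6% for Fgf7, 44% for Fgfr2, 56.4% for Dusp6, 62.4% for Spry2 and 77.2% for Fgf18, beside a median of 52.4% over all windows. A stretch of bases soon after the RefSeq start used for Fgfr2 was not found unbroken in any GENCODE M21 transcript of the gene. Whether this window acts as a promoter was not tested. The other searched motifs were in 12.4% (TATA box), 6.47% (CRE core), 6.75% (AP-1 site) and 12% (ETS core) of all windows.

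Fgf7 (ENSMUSG00000027208, chromosome 2, 126034658 to 126091185 on the + strand of GRCm38) was the most abundant of the 3 ligands. Its RPKM was 15.7 and 14.5 in the day 7 control libraries, 6.93 and 7.15 with LAMZ at day 7, 23.2 and 26.1 in day 14 control, and 15.7 and 12.2 with LAMZ at day 14. LAMZ libraries lay below the control libraries of the same day on both days. The ratio of mean control to mean LAMZ RPKM was 2.14 at day 7 and 1.77 at day 14. In the fit, Fgf7 fell by 1.00 (SE 0.14, adjusted p = 0.0039) on the log2(RPKM + 1) scale at day 7 and by 0.79 (SE 0.14, adjusted p = 0.0060) at day 14. From high to low, the groups were ordered day 14 control, day 7 control, day 14 LAMZ and day 7 LAMZ, and the middle pair overlapped.

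Fgf18 (ENSMUSG00000057967, chromosome 11, 33117430 to 33147400 on the - strand) rested on few reads. The day 7 control libraries held 4.02 and 4.14 RPKM (18 and 17 reads) and the day 7 LAMZ libraries 2.37 and 3.23 (12 and 20 reads). At day 14, the control libraries held 4.08 and 5.59 RPKM (26 and 30 reads) and the LAMZ libraries 0.867 and 1.21 (6 and 7 reads). The groups did not overlap on either day, and the day 14 LAMZ libraries were the lowest of all 8. At day 14 mean RPKM was 4.66-fold lower with LAMZ, and the fitted change was −1.51 (SE 0.18, adjusted p = 0.0010). The day 7 change of −0.43 (95% interval −0.84 to −0.0093, adjusted p = 0.170) missed the threshold, and it passed with an adjusted p of 0.0352 when all libraries were rescaled to the same sum.

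Fgf2 (ENSMUSG00000037225, chromosome 3, 37348346 to 37410108 on the + strand) was the least abundant ligand in the control libraries. At day 7 its RPKM was 1.502 and 1.592 in control and 1.57 and 1.06 with LAMZ, and the groups overlapped. At day 14 it was 2.50 and 2.44 in control (90 and 74 reads) and 0.639 and 0.794 with LAMZ (25 and 26 reads). The day 14 LAMZ libraries were the lowest of the 8 and the day 14 control libraries the highest. Mean RPKM was 3.45-fold lower with LAMZ at day 14, where the fitted change was −1.02 (SE 0.17, adjusted p = 0.0045), and the day 7 change was −0.15 (95% interval −0.54 to 0.25, adjusted p = 0.625). Fgf2 shares 895 exon bases with Gm43439 and with Nudt6 on the other strand, and the strand of counting is not stated, so reads there could belong to either gene. Nudt6 was also lower with LAMZ at day 14, with 1.89 and 2.11 RPKM in control and 1.02 and 0.855 with LAMZ. The part of shared reads in the fall of Fgf2 was not tested.

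The 3 ligands together summed to 21.2 and 20.2 RPKM in day 7 control, 10.9 and 11.4 with LAMZ at day 7, 29.8 and 34.1 in day 14 control, and 17.2 and 14.2 with LAMZ at day 14. Fgf7 made up most of this sum in every library.

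Of the receptors, Fgfr2 (ENSMUSG00000030849, chromosome 7, 130162451 to 133123350 on the - strand in GENCODE M21, 130162451 to 130266808 in RefSeq) was higher with LAMZ on both days and showed the largest rise at day 7. Its RPKM was 40.8 and 45.7 in day 7 control, 101.9 and 96.1 with LAMZ at day 7, 45.7 and 44.5 in day 14 control, and 83.7 and 86.1 with LAMZ at day 14. Every LAMZ library lay above every control library, the day 7 LAMZ libraries above those of day 14, and the control groups of the 2 days overlapped. Mean RPKM was 2.29-fold higher with LAMZ at day 7 and 1.88-fold higher at day 14. The fitted change was 1.18 (95% interval 0.92 to 1.43, adjusted p = 6.6e-04) at day 7 and 0.90 (95% interval 0.64 to 1.16, adjusted p = 0.0012) at day 14. Its values rested on 1591 to 5165 reads a library. The 314 exon bases it shares with Ctbp2 belong to the long GENCODE span, and Ctbp2 held 5.3 to 7.3 RPKM.

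Fgfr3 (ENSMUSG00000054252, chromosome 5, 33721674 to 33737068 on the + strand), the receptor best known from growth plate cartilage, was the least abundant of the 3 receptors in every library. Its RPKM was 4.19 and 5.65 in day 7 control and 12.3 and 9.49 with LAMZ at day 7. At day 14 it was 6.61 and 6.74 in control and 11.9 and 15.3 with LAMZ. All 4 LAMZ libraries exceeded all 4 control libraries, while the LAMZ libraries of the 2 days overlapped. Mean RPKM was 2.21-fold and 2.04-fold higher with LAMZ at day 7 and day 14. The fitted change was 1.008 (SE 0.18, adjusted p = 0.0110) at day 7 and 0.92 (SE 0.18, adjusted p = 0.0093) at day 14. The call was kept in 17 of 20 alternatives at day 7 and 18 of 20 at day 14. At day 7 the adjusted p was 0.0559 without control replicate 1, 0.0906 without LAMZ replicate 1 and 0.0621 with the day 7 libraries alone, and at day 14 it was 0.0512 without control replicate 1 and 0.0687 without LAMZ replicate 2.

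Fgfr1 (ENSMUSG00000031565, chromosome 8, 25513654 to 25575718 on the + strand) was close to level. Its RPKM was 35.9 and 36.7 in day 7 control, 35.5 and 37.0 with LAMZ at day 7, 35.9 and 42.8 in day 14 control, and 40.5 and 46.9 with LAMZ at day 14. LAMZ and control libraries overlapped on both days. The difference was −0.0018 (95% interval −0.30 to 0.30, adjusted p = 0.998) at day 7 and 0.15 (95% interval −0.15 to 0.45, adjusted p = 0.446) at day 14 on the log2(RPKM + 1) scale, and its sign turned with the scaling between libraries on either day. Fgfr1 and Fgfr3 share 164 and 998 exon bases with genes on the other strand (Gm16159 and G630022F23Rik), and Spry1 shares 710 with Gm42922.

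The makeup of receptor transcripts shifted accordingly, a comparison within each library that scaling a library by a single factor cannot change. The ratio of Fgfr2 to Fgfr1 RPKM was 1.137 and 1.248 in day 7 control, 2.87 and 2.60 with LAMZ at day 7, 1.27 and 1.04 in day 14 control, and 2.07 and 1.84 with LAMZ at day 14. Every LAMZ library had a higher ratio than every control library. As a share of the summed RPKM of the 3 receptors, Fgfr2 averaged 51.2% ± 1.05 (SD, n = 2) in day 7 control, 67.7% ± 0.467 with LAMZ at day 7, 49.6% ± 3.18 in day 14 control and 59.8% ± 2.42 with LAMZ at day 14. Fgfr3 averaged 5.79% ± 0.878, 7.43% ± 1.09, 7.33% ± 0.229 and 9.53% ± 1.08 (SD, n = 2) in the same order. At day 7 its lower LAMZ share (6.66%) was close to the higher control share (6.41%). The day 7 LAMZ shares (8.20% and 6.66%) overlapped those of day 14 control (7.49% and 7.17%). The receptor sum was 80.9 and 88.0 RPKM in day 7 control, 149.7 and 142.5 with LAMZ at day 7, 88.2 and 94.0 in day 14 control, and 136.1 and 148.4 with LAMZ at day 14.

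**Figure D1:**
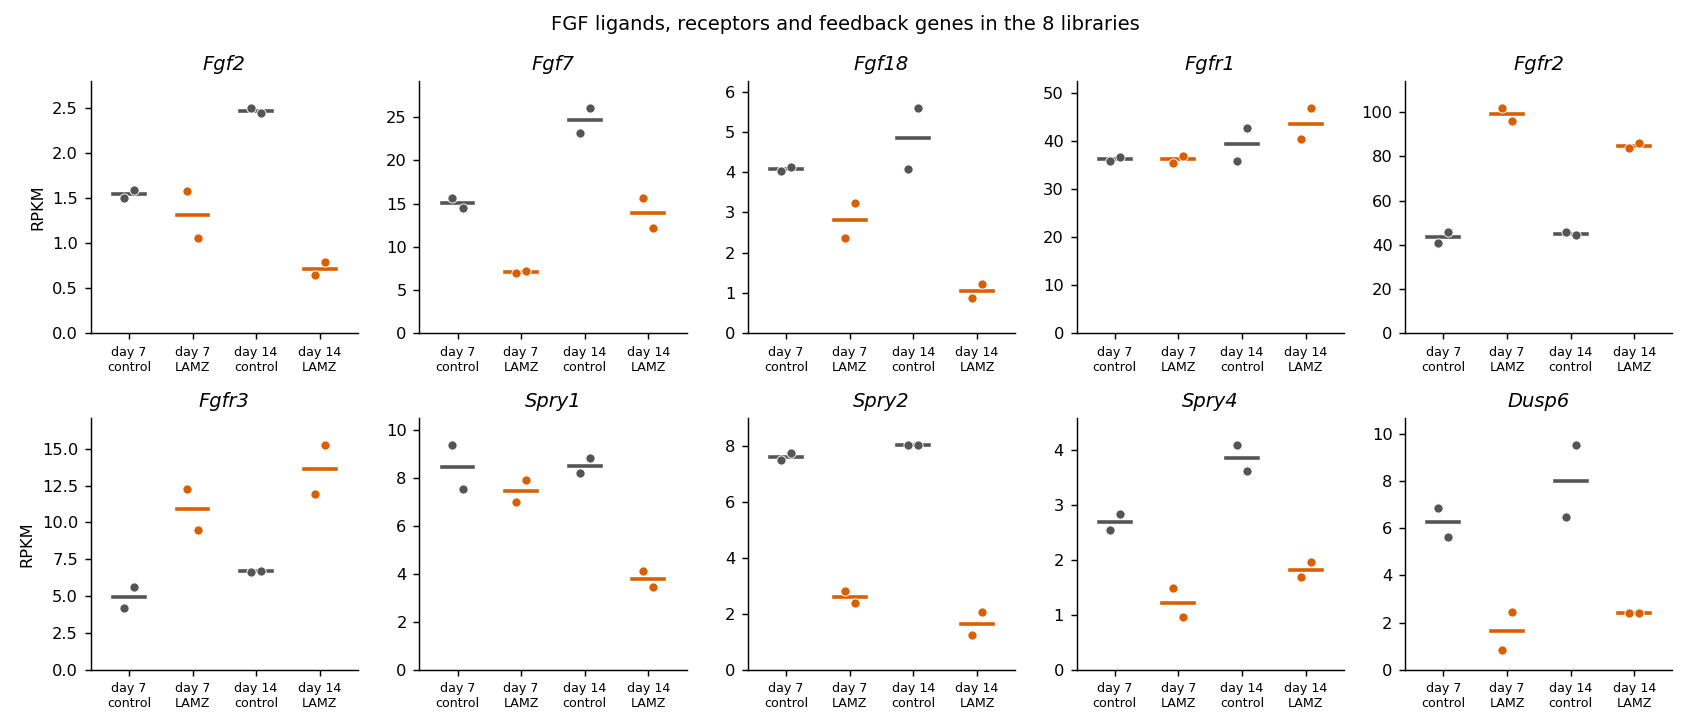
RPKM (linear axis from 0, a scale of its own for each gene) of the 10 FGF genes in the 4 groups, with 1 point per library and a bar at the mean of the 2 libraries, control in grey and LAMZ in orange. Fgfr2 and Fgfr3 sit higher in all LAMZ libraries, Fgfr1 overlaps on both days, and Fgf7, Spry2, Spry4 and Dusp6 sit lower with LAMZ on both days.

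Of the 4 feedback genes, 3 were lower with LAMZ at day 7 and all 4 at day 14. Spry2 (ENSMUSG00000022114, chromosome 14, 105891947 to 105896819 on the - strand), a Sprouty inhibitor of receptor tyrosine kinase signalling, had an RPKM of 7.50 and 7.75 in day 7 control and 2.81 and 2.39 with LAMZ at day 7. At day 14 it was 8.04 and 8.06 in control (90 and 76 reads) and 1.23 and 2.06 with LAMZ (15 and 21 reads). The control libraries of both days lay close together and far above the LAMZ libraries. Mean RPKM was 2.93-fold lower with LAMZ at day 7 and 4.88-fold lower at day 14. The fitted change was −1.26 (SE 0.16, adjusted p = 0.0026) at day 7 and −1.79 (SE 0.16, adjusted p = 2.8e-04) at day 14, and Spry2 fell in all 20 alternatives on both days with an adjusted p of at most 0.0270.

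Dusp6 (ENSMUSG00000019960, chromosome 10, 99263231 to 99267489 on the + strand), the ERK phosphatase, varied more between replicates. Its RPKM was 6.86 and 5.62 in day 7 control, 0.823 and 2.45 with LAMZ at day 7 (11 and 40 reads), 6.48 and 9.53 in day 14 control, and 2.41 and 2.42 with LAMZ at day 14. All 4 LAMZ libraries lay below all 4 control libraries. Mean RPKM was 3.81-fold lower with LAMZ at day 7 and 3.32-fold lower at day 14. The fitted change was −1.52 (SE 0.29, adjusted p = 0.0138) at day 7 and −1.38 (SE 0.29, adjusted p = 0.0121) at day 14. At day 7 it was −1.06 with an adjusted p of 0.0590 without LAMZ replicate 1, and −1.98 without LAMZ replicate 2. The day 7 call was lost in 4 of 19 alternatives, the others being without control replicate 1 (adjusted p = 0.0714), with no filter on low values (0.0572) and with the 2 groups alone (0.0781). At day 14 the adjusted p was 0.0866 without control replicate 2, 0.0614 without LAMZ replicate 1 and 0.0648 without LAMZ replicate 2.

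Spry4 (ENSMUSG00000024427, chromosome 18, 38586247 to 38601415 on the - strand), a further Sprouty inhibitor, had the lowest mean level of the 4 feedback genes in both control groups. Its RPKM was 2.54 and 2.83 in day 7 control, 1.48 and 0.962 with LAMZ at day 7, 4.10 and 3.62 in day 14 control, and 1.68 and 1.96 with LAMZ at day 14. Again no LAMZ library reached a control library. The fitted change was −0.74 (SE 0.16, adjusted p = 0.0225) at day 7 and −0.78 (SE 0.16, adjusted p = 0.0108) at day 14, with mean RPKM 2.20-fold and 2.12-fold lower. The day 7 call was lost in 7 of 19 alternatives, with an adjusted p of up to 0.121 without LAMZ replicate 2, 0.0858 without control replicate 2 and 0.0623 without control replicate 1. The day 14 call was lost without control replicate 1 (adjusted p = 0.0659) or LAMZ replicate 1 (adjusted p = 0.0686).

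Spry1 (ENSMUSG00000037211, chromosome 3, 37639947 to 37644598 on the + strand), the third Sprouty gene, was separated at day 14 alone. At day 7 its RPKM was 9.40 and 7.55 in control and 7.02 and 7.93 with LAMZ, and the groups overlapped. At day 14 it was 8.20 and 8.83 in control (128 and 116 reads) and 4.13 and 3.45 with LAMZ (70 and 49 reads). The day 14 LAMZ libraries were the lowest of the 8, at a mean RPKM 2.25-fold below control. The fitted change was −0.99 (SE 0.14, adjusted p = 0.0024) at day 14 and −0.16 (95% interval −0.49 to 0.17, adjusted p = 0.527) at day 7.

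Together, the 4 feedback genes summed to 26.3 and 23.8 RPKM in day 7 control, 12.1 and 13.7 with LAMZ at day 7, 26.8 and 30.0 in day 14 control, and 9.46 and 9.90 with LAMZ at day 14. The group means were 25.04 ± 1.803, 12.94 ± 1.124, 28.4 ± 2.28 and 9.68 ± 0.315 (SD, n = 2) in that order.

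**Figure D2:**
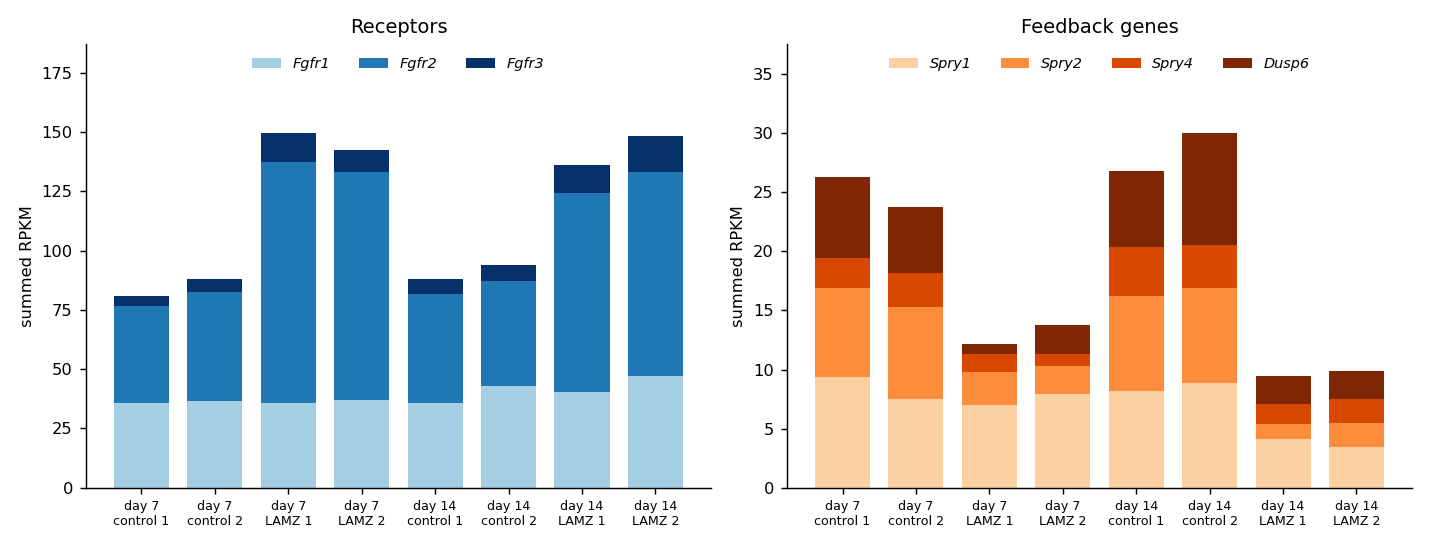
Summed RPKM (linear axis from 0) of the 3 receptors and of the 4 feedback genes in each of the 8 libraries, stacked by gene. The receptor bars reach 136.1 to 149.7 in LAMZ libraries and 80.9 to 94.0 in control, with the added height in Fgfr2 and Fgfr3, and the feedback bars reach 9.46 to 13.7 in LAMZ and 23.8 to 30.0 in control.

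Non-overlap of small groups was common across the transcriptome. For 20.4% of all tested genes at day 7 and 20.1% at day 14, each LAMZ library exceeded each control library, and for 35.9% and 44.2% each lay below. Of the 10 FGF genes, 2 lay above and 5 below at day 7, and 2 above and 7 below at day 14. Called on both days in the same direction were Fgfr2 and Fgfr3 (higher) and Fgf7, Spry2, Spry4 and Dusp6 (lower), beside 2.24% of all tested genes higher on both days and 6.11% lower on both days. The 2 days have no libraries in common.

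**Figure D3:**
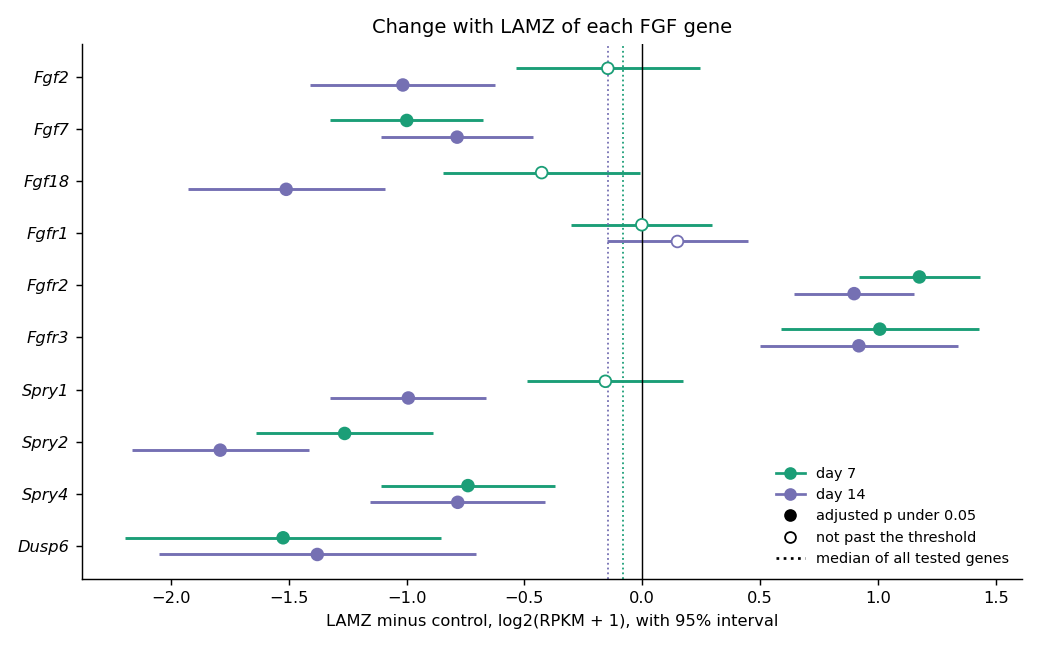
Difference between LAMZ and control on the log2(RPKM + 1) scale for each FGF gene, with its 95% interval from limma, at day 7 (green) and day 14 (purple). Filled points had an adjusted p under 0.05, and the dotted lines mark the median of all 12514 tested genes (−0.080 at day 7, −0.15 at day 14). Fgf2, Fgf18 and Spry1 lie further to the left at day 14, Fgfr1 lies at 0 on day 7, and Fgfr2 and Fgfr3 lie to the right on both days.

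Between day 7 and day 14 in control cultures, all 10 FGF genes had a difference above 0, beside 5518 of all 12514 tested genes. The smallest differences were those of Spry1 (0.012), Fgfr2 (0.059) and Spry2 (0.069). Those of Spry1, Fgfr2 and Fgfr1 went as low as −0.13, −0.021 and −0.015 when 1 library was left out. The median of the 10 FGF genes was 0.24, against −0.045 for all tested genes. Fgf7 rose by 0.67 (SE 0.14, adjusted p = 0.0407) and was the single gene of the 10 past the threshold, against 4.86% of all tested genes (2.46% higher, 2.40% lower), and this call was lost in 10 of 20 alternatives with an adjusted p of up to 0.151. It was lost without either control library of either day, with an adjusted p of 0.108 and 0.107 without day 7 control replicate 1 and 2 and of 0.127 and 0.143 without day 14 control replicate 1 and 2. Next in size were Fgf2 (difference 0.45, adjusted p = 0.175), Spry4 (0.40, adjusted p = 0.201) and Fgfr3 (0.39, adjusted p = 0.266), which did not pass.

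In LAMZ cultures, 3 of the 10 genes passed the threshold between the days, against 14.4% of all tested genes (5.10% higher, 9.26% lower). Fgf7 rose by 0.89 (SE 0.14, adjusted p = 0.0068), whereas Fgf18 fell by 0.90 (SE 0.18, adjusted p = 0.0162) and Spry1 fell by 0.82 (SE 0.14, adjusted p = 0.0094). The Fgf18 call was lost in 6 of 19 alternatives, among them no filter on low values (adjusted p = 0.0593), the 2 groups alone (0.0552), voom on recovered reads (0.0728) and without day 14 LAMZ replicate 1 (0.0897). The Fgf7 adjusted p was 0.0522 without day 7 LAMZ replicate 1. No call was left without day 7 LAMZ replicate 2, where the adjusted p was 0.0521 for Fgf7, 0.115 for Fgf18 and 0.0813 for Spry1, and 1 was left (Fgf7) without day 14 LAMZ replicate 2. Spry2 (−0.46, adjusted p = 0.0977), Fgf2 (−0.42, adjusted p = 0.132) and Fgfr2 (−0.22, adjusted p = 0.220) did not pass.

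Whether the LAMZ difference itself changed between the days was tested as an interaction. None of the 10 genes passed in limma, beside 0.623% of all tested genes. With voom weights on the recovered reads none of the 10 passed either, beside 335 of 12167 genes. At an unadjusted p under 0.05 there were 3 of 10 in either fit, against 16.5% of all tested genes. They were Fgf18 (−1.08, SE 0.26, adjusted p = 0.108), Fgf2 (−0.87, SE 0.24, adjusted p = 0.150) and Spry1 (−0.84, SE 0.20, adjusted p = 0.113), the same genes that passed the threshold for LAMZ at day 14 and not at day 7. The change between days thus did not pass the correction for any of the 3. For Fgfr2 the interaction was −0.28 (95% interval −0.64 to 0.085) and for Spry2 −0.53 (95% interval −1.06 to 0.0033).

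The other genes of the pathway were read from 6 lists holding 96 symbols, of which 95 were measured and 72 passed the filter. The lists, too, were chosen with earlier results of these data known, so their counts are a description. At day 7, 6 of the 72 were higher and 9 lower with LAMZ, and at day 14, 5 were higher and 20 lower. Over all tested genes the shares were 4.35% higher and 8.49% lower at day 7, and 6.96% and 16.0% at day 14, and the counts of each list below stand beside these shares. These splits depend on the scaling between libraries: they were 5 higher and 28 lower at day 7 and 4 and 50 at day 14 with all libraries rescaled to the same sum, and 8 and 8 at day 7 and 8 and 12 at day 14 with the libraries centred on the median. Without day 7 LAMZ replicate 1 or 2 the day 7 count was 6 or 7 instead of 15, and without day 14 control replicate 2, LAMZ replicate 1 or LAMZ replicate 2 the day 14 count was 16, 16 or 15 instead of 25.

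Of 19 further ligands, 4 passed the filter. Fgf21, a ligand known as a hormone of metabolism, was higher at day 14 (1.88, SE 0.31, adjusted p = 0.0046). It had 0 and 3 reads in the day 14 control libraries and 26 and 14 with LAMZ, at least 5.996-fold higher on the RPKM scale against a floor of 3 reads per library. At day 7 it had 1 and 1 reads in control and 4 and 2 with LAMZ.

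Among receptors and co-receptors other than the 3 above, 1 of 4 tested genes was lower at day 7 and 3 at day 14, beside 8.49% and 16.0% of all tested genes, and none was higher. Flrt2, a membrane protein with fibronectin and leucine-rich repeats that can bind FGF receptors, fell from 14.9 and 13.8 RPKM in day 7 control to 8.78 and 8.70 with LAMZ, and from 10.1 and 11.2 in day 14 control to 4.197 and 3.900. Its change was −0.65 (adjusted p = 0.0094) at day 7 and −1.21 (adjusted p = 3.3e-04) at day 14, and its day 7 call was lost in 2 of 20 alternatives. Fgfrl1, an FGF receptor without a kinase domain, changed by −0.13 (adjusted p = 0.636) at day 7 and −0.93 (adjusted p = 0.0043) at day 14, and Flrt3 by −0.051 (adjusted p = 0.890) and −0.71 (adjusted p = 0.0225, lost in 7 of 19 alternatives). Fgfr4, the fourth FGF receptor with a kinase, was low, with 0.578 to 1.87 RPKM in control and 0.145 to 1.246 with LAMZ, and did not pass on either day (adjusted p = 0.536 and 0.119).

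The feedback inhibitors outside the 4 member genes were lower in 1 of 11 tested genes at day 7 and 6 of 11 at day 14, with none higher, beside 8.49% and 16.0% of all tested genes lower. The median change of these 11 was −0.15 and −0.53, and that of all tested genes −0.080 and −0.15. Dusp4, a nuclear ERK phosphatase, had 10 and 14 reads in day 7 control, 0 and 2 with LAMZ, 35 and 21 in day 14 control, and 4 and 2 with LAMZ. Its fall was at least 5.23-fold at day 7 on the RPKM scale against the floor (adjusted p = 0.0228, lost in 6 of 19 alternatives), and at day 14 the change was −1.33 (adjusted p = 0.0051). Spred3 (−0.92, adjusted p = 0.0266), Lrig1 (−0.90, adjusted p = 0.0080) and Il17rd (−0.86, adjusted p = 0.0085), inhibitors of growth factor receptor signalling, were lower at day 14 and did not pass at day 7, where their adjusted p ranged from 0.144 to 0.572. Their day 14 calls were lost in 7 of 19, 1 of 20 and 2 of 19 alternatives. Spred1 (−0.53, adjusted p = 0.0210) and Cbl (−0.69, adjusted p = 0.0116), named after their values were seen, were also lower at day 14. These calls were lost in 6 and 5 of 20 alternatives. Spred1, Spred3 and Cbl did not pass at day 14 with the libraries centred on the median or with quantile normalization.

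Of 18 tested heparan sulfate genes, 2 were higher and 2 lower at day 7, and 1 was higher and 6 lower at day 14, beside 4.35%, 8.49%, 6.96% and 16.0% of all tested genes in that order. Gpc1, a glypican that carries heparan sulfate on the cell surface, rose from 91.3 and 98.9 RPKM to 207.8 and 194.7 with LAMZ at day 7 (1.07, adjusted p = 0.0013), and from 107.6 and 115.3 to 340.3 and 375.8 at day 14 (1.67, adjusted p = 8.0e-05). Another glypican, Gpc3, went the other way, by −0.70 (adjusted p = 0.0060) at day 7 and −1.07 (adjusted p = 4.8e-04) at day 14. Hs6st2, which adds sulfate to heparan sulfate, was lower on both days (−0.70 and −0.74, adjusted p = 0.0107 and 0.0047). Sdc3, a syndecan, was higher at day 7 (0.73, adjusted p = 0.0175) and did not pass at day 14 (0.39, adjusted p = 0.0933). The day 7 calls of Hs6st2 and Sdc3 were each lost in 4 of 20 alternatives and that of Gpc3 in 1.

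Among 23 signal transducers, 2 were lower at day 7 and 4 at day 14, a share near the 8.49% and 16.0% of all tested genes, and none was higher. Pik3r1, the regulatory subunit of PI3 kinase, changed by −0.78 (adjusted p = 0.0090) and −1.09 (adjusted p = 0.0012) on the 2 days. The adaptor Gab1 (−0.99, adjusted p = 0.0025) and the adaptor Grb2 (−0.62, adjusted p = 0.0090) were lower at day 14, and the phosphatase Ptpn11 at day 7 (−0.62, adjusted p = 0.0252). The Ptpn11 call was lost in 6 of 20 alternatives, that of Grb2 in 2, and that of Pik3r1 at day 7 in 1.

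Target genes of the pathway moved in both directions, with 4 of 12 higher and 3 lower at day 7 and 3 higher and 1 lower at day 14, beside 4.35%, 8.49%, 6.96% and 16.0% of all tested genes in that order. Egr1, an immediate early transcription factor named after its values were seen, was the target called lower on both days (−0.83, adjusted p = 0.0424, and −0.91, adjusted p = 0.0184), and these calls were lost in 13 and 5 of 19 alternatives. Etv5 and Etv4, ETS factors that FGF signalling is known to raise, had lower RPKM in every LAMZ library than in the control libraries of the same day. Etv5 passed at day 7 (−0.60, adjusted p = 0.0156, lost in 4 of 20 alternatives) and not at day 14 (−0.38, adjusted p = 0.0512), and Etv4 passed on neither day (−0.77 and −0.71, adjusted p = 0.0719 and 0.0654). Myc, which many growth factors raise, was higher on both days (1.41 and 1.14, adjusted p = 4.5e-04 and 6.1e-04). Spp1, which encodes the bone matrix protein osteopontin, was also higher on both days (3.23 and 2.99, adjusted p = 0.0014 and 0.0011). Spp1 and Runx2 are also in the osteoblast marker list, so they count in both lists. Runx2, the osteoblast transcription factor, was higher at day 7 (0.96, adjusted p = 0.0047) and did not pass at day 14 (0.20, adjusted p = 0.342), and the immediate early gene Ier3 behaved alike in this respect (1.096, adjusted p = 0.0104, then 0.47, adjusted p = 0.121). Ier2, named after its values were seen, was the single gene of the 72 whose LAMZ difference changed between days past the threshold. It had 6.97 and 6.26 RPKM in day 7 control, 3.70 and 4.54 with LAMZ, 8.69 and 8.28 in day 14 control, and 13.6 and 13.2 with LAMZ (interaction 1.18, adjusted p = 0.0369). That call was lost in 13 of 19 alternatives, with an adjusted p of up to 0.1475, among them each of the 8 that left out 1 library, and the difference kept its sign in all 19.

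**Figure D4:**
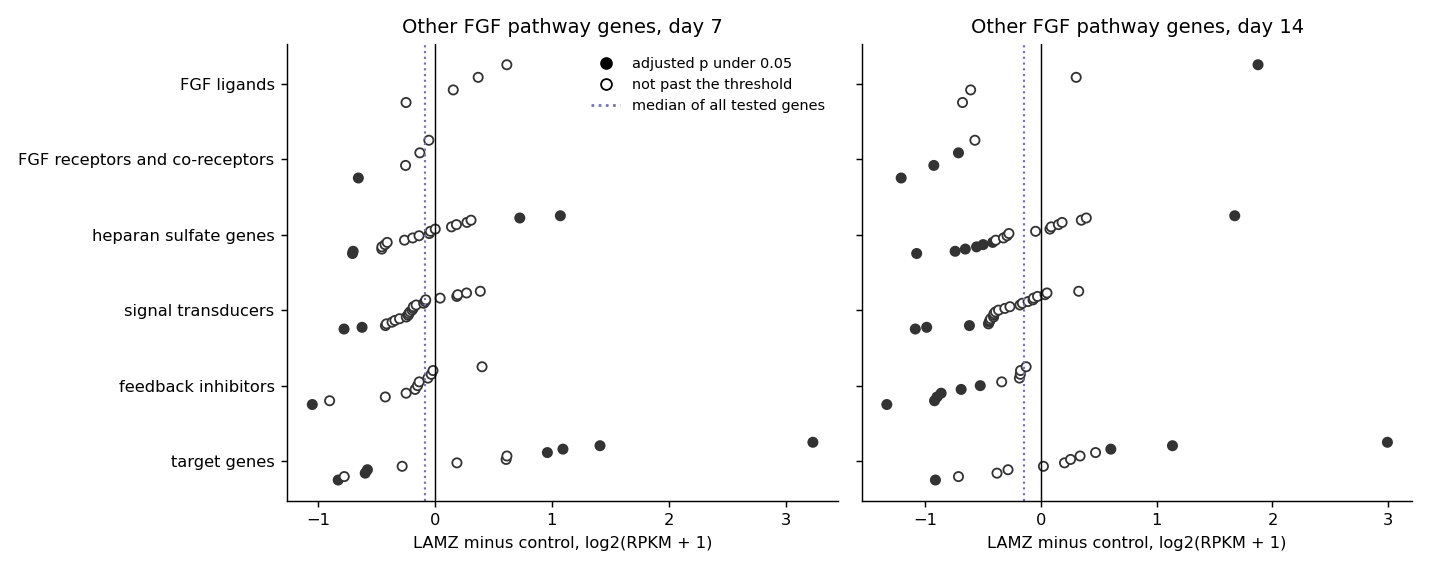
Difference between LAMZ and control on the log2(RPKM + 1) scale for the 72 tested FGF pathway genes outside the 10, in 6 lists, at day 7 and day 14. Filled points had an adjusted p under 0.05 and the dotted line is the median of all tested genes. The 6 filled points among feedback inhibitors at day 14 all lie to the left of 0, and among target genes filled points lie on both sides on each day.

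The tested genes with the profile most like each member were found by Pearson's r of log2(RPKM + 1) over the 8 libraries, given as a description without a test, since the libraries share 4 groups and many genes follow LAMZ. Fgfr2 was most like Pkm (r = 0.992) and Adamts18 (0.991), and Fgfr3 most like Smad1 (0.991) and Prr33 (0.988). Fgfr1, which did not follow LAMZ, had lower best matches in Enpp1 (0.969) and Apol6 (0.960). For the ligands, the closest were Pdp1 (0.983) and Mtmr3 (0.975) for Fgf2, Tns3 (0.994) and Sat1 (0.993) for Fgf7, and Colec12 (0.989) and H6pd (0.984) for Fgf18. For the feedback genes, they were Malsu1 (0.997) and Rnase4 (0.993) for Spry1, S1pr3 (0.996) and Bcl2l11 (0.992) for Spry2, Col18a1 (0.989) and Card9 (0.988) for Spry4, and Cdc42se1 (0.986) and Tgfbr3 (0.985) for Dusp6. Both closest matches of each gene came from outside the 10.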

How the data were processed

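RNA of 8 libraries of mouse osteoblast progenitors, 2 in each of 4 groups taken from the sample labels, was analysed. The header of 1 value column (day 7 LAMZ replicate 1) differs from its sample title, and that file was assigned by the record of the deposited files. The authors sequenced on an Ion Proton, assigned reads to genes with CLC Genomics Workbench (version and strand setting not given in the sources used here) and deposited RPKM values per gene symbol. Per the labels the build was mm10. Scaling is within each library. In each file 4 rows with repeated, date-like symbols were dropped. Mapped reads were recovered as the number at which low RPKM values of single-exon genes in GENCODE M21 (GRCm38) became whole reads, within 0.02 of a read for 95.9% to 96.9% of 915 to 1554 values per library. The floor of 3 reads covers counting error only, since PCR reads are not independent molecules.

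Values of genes that reached 1 RPKM in 2 or more libraries were transformed to log2(RPKM + 1), which understates changes of low genes, and fitted in limma 3.58.1 (R 4.3.3; lmFit, eBayes with trend) as 4 groups with 4 residual degrees of freedom. Tests were two-sided with Benjamini-Hochberg adjustment over all 12514 genes, threshold 0.05. The 95% intervals are from the same fit. The functions were tested on simulated data.

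Named were the 10 members, up to 4 called genes per pathway list by size of change, Fgfr4, Fgfrl1, Etv4, Etv5 and Dusp4, and the 2 genes most like each member. Members and lists were chosen with earlier results of these data known. Alternatives were other pseudocounts (0.1 and 5), filters, scalings, a replicate block, the 2 groups alone, no trend and leaving out each library. Voom on recovered reads and a sum without small structural RNAs were chosen after seeing the data. Same-numbered libraries share only a number. Spry3 and Itgam were not analysed here, and neither were protein sequences. Positions are those of GENCODE M21 and RefSeq.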

Additional observations from a re-analysis of the deposited data

How the results depend on the processing

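Of the values of single FGF genes, 903 kept their direction and side of the threshold under the alternatives, 41 lost the threshold, 1 gained it and 25 changed sign, all of the last in differences that had not passed. Fgf7, Fgfr2 and Spry2 passed for LAMZ on both days, and Fgf2, Fgf18 and Spry1 at day 14, in every alternative in which they were tested. The median change of all genes moved from −0.080 at day 7 and −0.15 at day 14 to −0.31 and −0.43 with all libraries rescaled to the same sum, and to 0.033 and 0.043 with centring on the median, and the share of called genes that were higher moved from 33.9% and 30.3% to 8.69% and 8.16% and to 53.5% and 56.3%. Small groups and 6 to 90 reads for the lowest members limit the precision.

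The count of FGF genes at day 7 (6) was 3 with the 2 groups alone and 3 to 6 when 1 library was left out. At day 14 (9) it was 5 of the 6 genes still tested under the stricter filter, and 7 to 9 with 1 library left out. The pathway count at day 7 (15) was 33 with the same sum, 24 with the same sum without small structural RNAs, 8 with the 2 groups alone and 6 to 14 with 1 library left out. At day 14 (25) it was 54 and 39 under those sums and 15 to 24 with 1 library left out. The count between days in control (1) was 0 with no filter, with the 2 groups alone, with no trend and with the replicate block, and 0 to 1 with 1 library left out. In LAMZ (3) it was 0 to 3 with 1 library left out.

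Changes of sign were as follows. Fgfr1 at day 7 was 0.11 with median centring, 0.032 with quantile normalization and −0.029 to 0.026 with 1 library left out, and at day 14 −0.21 with the same sum. Fgf2 at day 7 was −0.31 to 0.015 with 1 library left out. Between days in control, leaving out 1 library gave −0.021 to 0.14 for Fgfr2, −0.13 to 0.15 for Spry1 and −0.015 to 0.23 for Fgfr1, and in LAMZ −0.016 to 0.90 for Dusp6. The interaction of Spry4 was 0.060 with a pseudocount of 0.1, 0.033 with median centring, 0.025 with quantile normalization, 0.11 with voom and −0.21 to 0.13 with 1 library left out. That of Dusp6 was −0.032 with a pseudocount of 5 and −0.31 to 0.61 with 1 library left out, and that of Fgfr3 −0.27 to 0.090. The cause was not tested.

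The replicate numbers share no stated culture or day, and deviations of same-numbered libraries correlated at −0.017 at day 7 and 0.016 at day 14. With the replicate block the counts of FGF genes were 6 at day 7 and 9 at day 14, the pathway counts 15 and 26, and Fgf7 between days in control lost its call (adjusted p = 0.0604), with no other call of the 10 genes changed. The planned count test was not run, since the deposited values are RPKM.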
